A study of Mus musculus with 12 samples.

Results

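Cdx1, Cdx2, Hnf4a, Hnf4g, Klf4, Klf5, Gata6, Hoxb13 and Hoxd13 encode transcription factors that hold gut epithelium to an intestinal and colonic identity. They were chosen by name, as 9 of the 55304 gene symbols counted, and all 9 had enough reads to be tested. The mice were 12 C57BL/6 animals, 6 weeks old, 4 to a group, and RNA of the epithelium released from each colon was sequenced. Control OIL mice were labelled wild-type, received sunflower oil and had source names that begin with EVCER, a prefix the labels do not define. EHF IKO mice carried the same prefix, were labelled as intestinal knockouts of Ehf and received tamoxifen. Control TMX mice were labelled wild-type, received tamoxifen and came from the source VilCreER, which the series text gives as Villin CreERT2, a Cre recombinase that tamoxifen activates and that the Villin promoter drives in intestinal epithelium. Ehf encodes an epithelial transcription factor of the ETS family, and the labels do not name its deleted exons. EHF IKO therefore differed from Control OIL in both the genotype label and tamoxifen, which cannot be told apart in that comparison, and from Control TMX in the genotype label and the source prefix. Control TMX differed from Control OIL in both tamoxifen and the source prefix, which cannot be told apart there either. The question addressed here is whether the levels of the identity factors differed between these groups.

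CDX1 and CDX2 are caudal-type homeodomain proteins, and in mice CDX2 keeps the intestinal lining from taking on a stomach-like or squamous programme. HNF4A and HNF4G are nuclear receptors that drive brush border and fatty acid genes of enterocytes, while KLF4 is a zinc finger factor of differentiated surface cells and KLF5 one of dividing crypt cells. GATA6 is a zinc finger factor active along the whole gut, and the last-numbered Hox proteins HOXB13 and HOXD13 mark its posterior end.

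The libraries held 7421411 to 10344161 counted reads, of which mitochondrial genes took 10.7% to 26.3%. Genes with at least 1 count numbered 36109 in EHF IKO replicate 2 and 23588 to 25966 in the other libraries, so this library stood apart, and values without it are given beside the results it moves most. Xist and the Y-linked genes showed that each group had 2 female mice (replicates 1 and 2) and 2 males (replicates 3 and 4). Summed over its exons, Ehf had 341 ± 30.1 CPM (mean ± SD, n = 4) in EHF IKO against 345 ± 21.0 CPM in Control TMX and 428 ± 46.4 CPM in Control OIL, which does not measure the deletion. All 9 epithelial markers were detected, at a summed 7604 to 9648 CPM in Control OIL, 8901 to 9407 CPM in Control TMX and 9576 to 11420 CPM in EHF IKO. All 9 were higher in EHF IKO against the mean of both controls. In edgeR 6 of them had an unadjusted p under 0.05, where 11.6% of all genes did, and none was called. Meanwhile the gastric markers summed to at most 1.66 CPM, with Gkn2 at 0 in every library. The squamous markers summed to 1.48 to 2.04 CPM in Control OIL, 1.24 to 2.22 CPM in Control TMX and 2.42 to 4.56 CPM in EHF IKO. EHF IKO replicate 2 had the highest sum of both kinds. Of the 5 squamous markers only Krt14 had enough reads to be tested, at 9 to 26 counts in a library, and edgeR did not call it. The 8 fibroblast markers summed to 300.8 to 412 CPM in Control OIL, 424 to 724 CPM in Control TMX and 403 to 1010.0 CPM in EHF IKO. Against Control OIL Col3a1 and Col1a2, both collagen genes, rose in EHF IKO by 1.05 ± 0.22 and 1.10 ± 0.25 on the log2 scale (edgeR adjusted p = 0.0318 and 0.0445). In that comparison 1.68% of all genes were called. None of the 8 fibroblast markers was called by edgeR against Control TMX or the mean of both controls. All 8 were higher in Control TMX than in Control OIL, with a median log2 fold change of 0.54 and none called. The Col3a1 call held in 4 of 12 fits that left out 1 library and in 8 of 11 other settings. That of Col1a2 held in 3 of 12 and in 5 of 11. The highest adjusted p by edgeR was 0.788 for both, with a fibroblast marker score in the fit. Both genes are part of that score, so that fit cannot test them apart from it.

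Promoter windows of 4 of the 9 genes were searched, and those of the other genes were not. Of these windows 3 are printed here. They show where GGAA, the core that ETS proteins bind, falls before the Klf4, Hoxd13 and Cdx2 starts. Each window holds the 250 bases before the transcription start in RefSeq (GRCm38.p6), 5′ to 3′ on the strand of the gene. Capitals mark GGAA on either strand, where the opposite strand reads as TTCC, and both strands were also searched for the longer forms CGGAAG and AGGAAG, which contain it.
Klf4, chr4:55532476-55532725, minus strand: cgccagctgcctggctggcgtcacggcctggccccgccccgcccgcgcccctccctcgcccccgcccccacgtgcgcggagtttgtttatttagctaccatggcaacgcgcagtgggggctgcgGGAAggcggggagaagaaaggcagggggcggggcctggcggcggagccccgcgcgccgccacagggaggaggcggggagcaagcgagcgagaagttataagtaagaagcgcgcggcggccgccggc
Hoxd13, chr2:74667975-74668224, plus strand: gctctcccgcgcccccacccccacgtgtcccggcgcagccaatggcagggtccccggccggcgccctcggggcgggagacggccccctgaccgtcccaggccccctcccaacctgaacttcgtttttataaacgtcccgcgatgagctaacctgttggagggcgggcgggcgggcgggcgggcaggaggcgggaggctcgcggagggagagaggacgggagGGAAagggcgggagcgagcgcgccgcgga
Cdx2, chr5:147307250-147307499, minus strand: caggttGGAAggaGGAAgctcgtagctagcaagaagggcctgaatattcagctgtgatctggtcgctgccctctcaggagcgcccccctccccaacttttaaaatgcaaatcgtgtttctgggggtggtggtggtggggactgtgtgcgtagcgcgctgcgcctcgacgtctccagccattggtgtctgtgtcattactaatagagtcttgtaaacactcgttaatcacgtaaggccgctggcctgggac
The Klf4 and Hoxd13 windows each held 1 GGAA and neither longer form, and the Cdx2 window held 2 GGAA, of which 1 lay in an AGGAAG. Hnf4a has 2 annotated starts, and the window of the upstream one held 1 AGGAAG on the opposite strand while that of the downstream one held neither. Among 32851 promoter windows of this length, GGAA was present in 93.4%, CGGAAG in 13.6%, AGGAAG in 29.5% and either in 39.2%, so a match is common and describes the letters alone.

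Levels are given in CPM, read counts divided by the TMM-scaled library size, and levels of different genes are compared only as CPM per kilobase of exon. Over the 12 libraries Klf4 was the highest of the 9 at 147.7 ± 16.2 CPM per kilobase (mean ± SD), followed by Hnf4a at 133.9 ± 10.4. Klf4 exceeded Hnf4a in 9 of 12 libraries and their ranges overlapped. Cdx1 followed at 95.2 ± 23.9 CPM per kilobase and lay below Hnf4a in all 12 libraries. Cdx2 (72.7 ± 11.4) and Klf5 (72.4 ± 8.14) could not be ordered, since each was the higher in 6 libraries. Hoxb13 stood at 48.02 ± 11.7 CPM per kilobase, below Klf5 in all 12. A gap with no overlap separated Hoxb13 from the lowest members, which were Hnf4g (11.3 ± 1.37), Gata6 (9.78 ± 0.873) and Hoxd13 (6.97 ± 2.73). The low members rested on fewer reads, with 173 to 316 counts of Hnf4g, 372 to 692 of Gata6 and 90 to 269 of Hoxd13 in a library. Of the 9, Hoxd13 and Cdx1 varied most between libraries, with coefficients of variation of 39.2% and 25.1%, and Hnf4a least, at 7.74%.

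**Figure D1:**
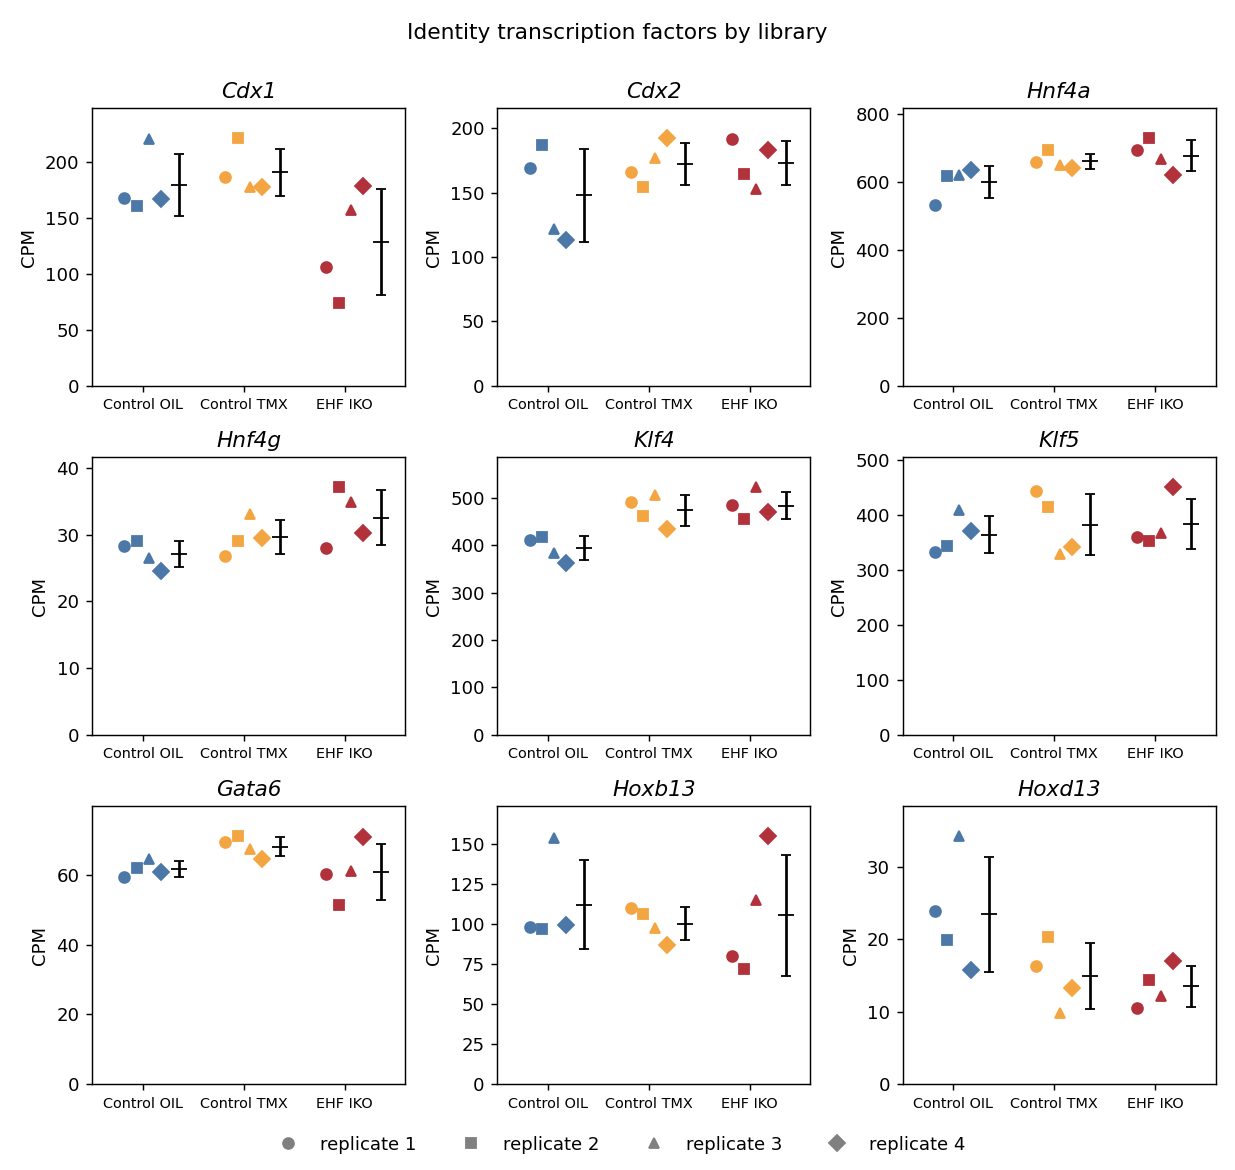
Level of each factor in CPM (vertical axis, from 0) in every library, by group, with the mean and SD of each group beside the points and a symbol for each replicate number. In EHF IKO, Cdx1 sits at 106 and 73.8 CPM in replicates 1 and 2 and at 157 and 179 CPM in replicates 3 and 4, and Klf4 lies above all 4 Control OIL libraries in both tamoxifen-treated groups.

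None of the 9 factors passed an adjusted p under 0.05 in edgeR's quasi-likelihood test in any comparison. Against the mean of both controls 1.72% of all 15743 genes tested were called, against Control OIL 1.68%, against Control TMX 0.8%, and between the controls 0.0826%. At an unadjusted p under 0.05 the numbers of factors were 1, 4, 1 and 2 in the same order, where 11.6%, 11.9%, 11.9% and 12.9% of all genes passed. DESeq2 called Klf4 against Control OIL, where it called 3.4% of all genes. It called no other factor there and none in the other comparisons, where its share of all genes was 2.99%, 1.94% and 1.48%. No factor was called when any 1 library was left out. The median log2 fold change of the 9 was 0.04, 0.07, 0.01 and 0.13, beside 0.01, -0.01, 0.02 and -0.01 over all genes tested. The comparisons of EHF IKO share their libraries with each other and with the comparison of the controls. In RNA from a whole tissue layer, fewer cells of a type and less RNA per cell cannot be told apart.

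**Figure D2:**
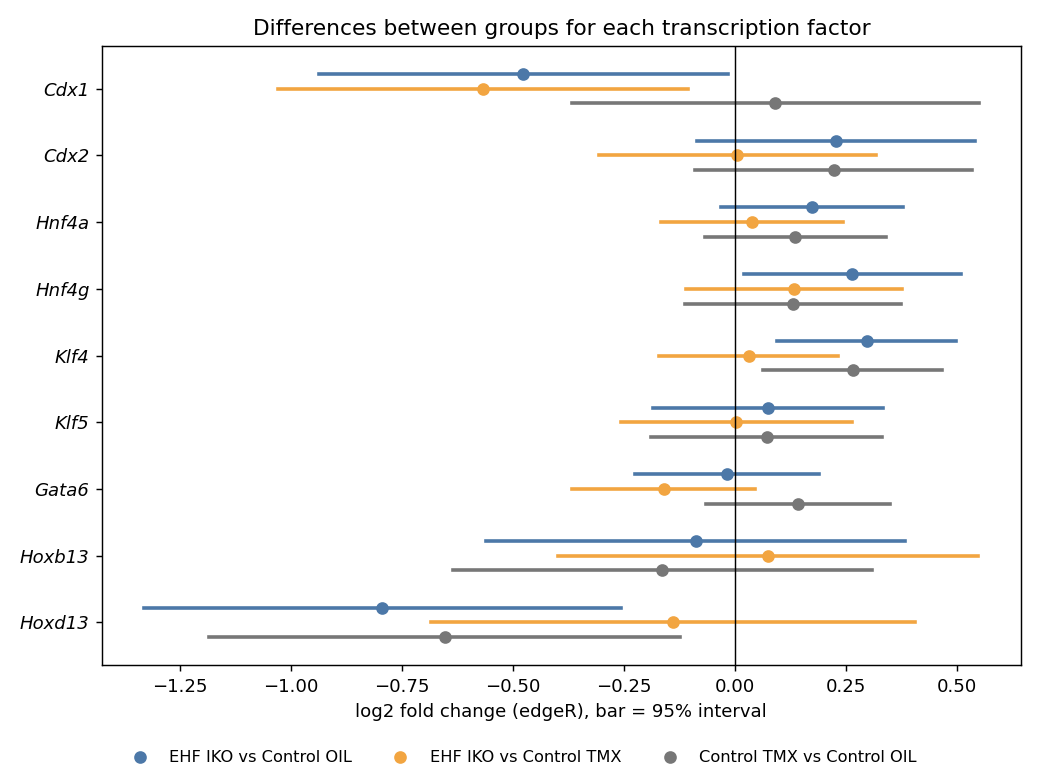
Log2 fold change (horizontal axis) of each factor from edgeR with its 95% interval, for EHF IKO against Control OIL, EHF IKO against Control TMX and Control TMX against Control OIL. The intervals of Cdx1 lie below 0 against both controls, those of Hoxd13 lie below 0 against Control OIL for both tamoxifen-treated groups, and those of Klf4 lie above 0 in the same pair of comparisons. That of Hnf4g lies above 0 for EHF IKO against Control OIL. No factor had an edgeR adjusted p under 0.05 in any of these comparisons.

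Cdx1 (ENSMUSG00000024619, GRCm38 chromosome 18, 61018862 to 61036199, minus strand) had 168, 161, 221 and 168 CPM in Control OIL replicates 1 to 4. The level was 187, 222, 178 and 178 CPM in Control TMX and 106, 73.8, 157 and 179 CPM in EHF IKO. EHF IKO replicates 1, 2 and 3 lay below all 8 control libraries and replicate 4 lay among them, so the groups overlapped. The log2 fold change against the mean of both controls was -0.52 ± 0.19 (SE; 95% interval -0.93 to -0.12; edgeR unadjusted p = 0.0156, adjusted p = 0.254). It was -0.48 ± 0.21 against Control OIL and -0.57 ± 0.21 against Control TMX, with adjusted p of 0.396 and 0.315 by edgeR. Without EHF IKO replicate 2 the value against both controls was -0.33 (adjusted p = 0.533 by edgeR, with 0.018 to 0.55 over all alternatives). The lowest of these came from the fit with no filter on low counts.

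The lowest Cdx1 libraries of EHF IKO were the 2 female ones, replicates 1 and 2, which is given as a description with no test since it was seen in these values. In females Cdx1 was 161 to 222 CPM in the 4 control libraries, and in males it was 168 to 221 CPM in the controls beside 157 and 179 CPM in EHF IKO. The order was not particular to Cdx1. Hoxb13 in EHF IKO was 80.1 and 71.8 CPM in replicates 1 and 2 beside 115 and 155 CPM in replicates 3 and 4. Replicates 1 and 2 were also the lowest of EHF IKO for Klf5 and Gata6, but not for Cdx2, Hnf4a, Hnf4g, Klf4 or Hoxd13. In the EVCER animals replicates 1 and 2 also carried lower animal numbers than replicates 3 and 4, so sex and whatever those numbers mark cannot be told apart.

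Cdx2 (ENSMUSG00000029646, chromosome 5, 147300805 to 147307270, minus strand) had 169, 187, 122 and 112.8 CPM in Control OIL. It stood at 166, 154, 177 and 192 CPM in Control TMX and at 191, 164, 153.1 and 183 CPM in EHF IKO. Control OIL replicates 3 and 4 were lower than every other library, and the rest of the libraries overlapped. Against Control TMX the log2 fold change was 0.01, with a 95% interval of -0.31 to 0.32, and against Control OIL it was 0.23 ± 0.15 (edgeR adjusted p = 0.618). Control OIL replicates 3 and 4 also had the highest distal-minus-proximal colon marker scores, at 1.34 and 2.02, against -1.11 to 0.864 in the other 10 libraries, and with that score in the fit the value against Control OIL was 0.03 (adjusted p = 0.92, with 0.292 to 0.92 over all alternatives). All 4 EHF IKO libraries had scores below 0, at -0.766 to -0.334, and 1 of the 4 distal markers in the score, Scnn1b, was itself called lower in EHF IKO. The ratio of Cdx1 to Cdx2 per kilobase was below 1 in EHF IKO replicates 1 and 2, at 0.718 and 0.58, and lay between 1.11 and 2.34 in the other 10 libraries. Its mean log2 value was -0.13 ± 0.59 in EHF IKO, 0.67 ± 0.50 in Control OIL and 0.52 ± 0.28 in Control TMX (SD, n = 4; exact permutation p = 0.143 against either, adjusted p = 0.411 over the 12 ratio tests, two-sided). Without EHF IKO replicate 2 the difference of means was -0.58 from Control OIL and -0.43 from Control TMX, where it had been -0.80 and -0.65. With 4 mice against 4 the smallest p possible is 0.0286, which for 1 test alone among 12 would adjust to 0.343.

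Hnf4a (ENSMUSG00000017950, chromosome 2, 163506808 to 163572910, plus strand) was counted at 532, 618, 619.9 and 635 CPM in Control OIL. It reached 658, 693, 649 and 641 CPM in Control TMX and 694, 729, 669 and 619.5 CPM in EHF IKO. All 4 Control TMX libraries lay above all 4 Control OIL libraries, as did 6.88% of all genes in one direction or the other, and EHF IKO overlapped both. The log2 fold change of Control TMX against Control OIL was 0.14 ± 0.10 and that of EHF IKO against Control TMX 0.04 ± 0.10 (edgeR adjusted p = 0.579 and 0.922). For the latter the 95% interval was -0.17 to 0.24, or a change of -10.9% to 18.3%. The antisense gene Hnf4aos overlaps the locus, shares no exon base with Hnf4a and had 25 to 64 counts in a library. Hnf4g (ENSMUSG00000017688, chromosome 3, 3508030 to 3658052, plus strand) was counted at 28.4, 29.0, 26.5 and 24.6 CPM in Control OIL, at 26.9, 29.0, 33.0 and 29.5 CPM in Control TMX and at 28.1, 37.1, 34.9 and 30.2 CPM in EHF IKO. EHF IKO replicates 2 and 3 were the highest of all libraries and the groups overlapped. Its log2 fold change was 0.26 ± 0.11 against Control OIL (edgeR unadjusted p = 0.0355, adjusted p = 0.359). With Control TMX as the reference it was 0.13 ± 0.11 (edgeR adjusted p = 0.702). Per kilobase Hnf4a stood 10.2 to 14.1 times as high as Hnf4g in every library, and this ratio overlapped between all 3 groups.

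Klf4 (ENSMUSG00000003032, chromosome 4, 55527143 to 55532466, minus strand) had 411, 418, 383 and 363 CPM in Control OIL. Its level was 492, 461, 506 and 434 CPM in Control TMX and 486, 456, 523 and 470.0 CPM in EHF IKO. Every library of both tamoxifen-treated groups lay above every Control OIL library, and the tamoxifen-treated groups overlapped each other. Klf4 was the only factor whose EHF IKO and Control OIL libraries did not overlap, as was the case for 6.54% of all genes tested. Control TMX and Control OIL libraries did not overlap for 6.88%, and the share of genes with both separations was not computed. No factor separated EHF IKO from Control TMX or from all 8 controls, which 7.18% and 2.4% of all genes did. The log2 fold change against Control OIL was 0.30 ± 0.10 in EHF IKO and 0.27 ± 0.10 in Control TMX (edgeR adjusted p = 0.159 and 0.287). DESeq2 gave an adjusted p of 0.0203 for the former, the lowest of a range of 0.0203 to 0.783 over all alternatives. The highest came from the fit with a fibroblast marker score, where the log2 fold change was 0.20. Between EHF IKO and Control TMX the log2 fold change was 0.03, with a 95% interval of -0.17 to 0.23.

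Klf5 (ENSMUSG00000005148, chromosome 14, 99298691 to 99315036, plus strand) was counted at 333, 344, 408 and 370.1 CPM in Control OIL, 443, 415, 329 and 342 CPM in Control TMX and 359.8, 354, 368 and 451 CPM in EHF IKO. High and low libraries occurred in every group, and the log2 fold change was 0.07 against Control OIL (95% interval -0.19 to 0.33) and 0.0028 against Control TMX (-0.26 to 0.26). The log2 ratio of Klf4 to Klf5 per kilobase was 1.11 ± 0.20 (SD, n = 4) in EHF IKO, against 1.09 ± 0.22 in Control TMX and 0.89 ± 0.20 in Control OIL, and the exact permutation p of EHF IKO against Control OIL was 0.171 (adjusted p = 0.411).

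Gata6 (ENSMUSG00000005836, chromosome 18, 11052064 to 11085635, plus strand) was counted at 59.5, 62.1, 64.7 and 60.8 CPM in Control OIL and at 69.4, 71.2, 67.5 and 64.7 CPM in Control TMX. In EHF IKO it was 60.4, 51.3, 61.2 and 70.9 CPM, a wider range than in either control group, with the lowest library of all 12 in replicate 2. On the log2 scale EHF IKO differed by -0.02 from Control OIL (95% interval -0.23 to 0.19) and by -0.16 ± 0.10 from Control TMX (-0.37 to 0.05; edgeR adjusted p = 0.559), and the latter was -0.09 without EHF IKO replicate 2. Gata6 shares 93 exon bases with 1010001N08Rik on the other strand, and reads were counted without regard to strand.

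Hoxb13 (ENSMUSG00000049604, chromosome 11, 96194316 to 96197447, plus strand) was counted at 98.1, 97.0, 154 and 99.5 CPM in Control OIL and at 110.3, 106, 97.4 and 86.8 CPM in Control TMX. EHF IKO held both the lowest and the highest library, at 80.1, 71.8, 115 and 155 CPM. Its replicates 1 and 2, the female ones, lay below all control libraries. The log2 fold change against the mean of both controls was -0.01, with a wide 95% interval of -0.42 to 0.40. Hoxd13 (ENSMUSG00000001819, chromosome 2, 74668310 to 74671599, plus strand) was counted at 23.9, 19.9, 34.3 and 15.8 CPM in Control OIL, 16.3, 20.4, 9.75 and 13.3 CPM in Control TMX and 10.5, 14.4, 12.1 and 17.1 CPM in EHF IKO. Control OIL replicates 1 and 3 were above all 8 libraries of the tamoxifen-treated groups, and the other Control OIL libraries overlapped them. The log2 fold change against Control OIL was the largest in size of any of the 9 factors, at -0.79 ± 0.25 in EHF IKO (95% interval -1.33 to -0.26; edgeR unadjusted p = 0.00659, adjusted p = 0.156). It was -0.65 ± 0.25 in Control TMX (adjusted p = 0.305 by edgeR) and -0.14 ± 0.26 for EHF IKO against Control TMX (95% interval -0.69 to 0.40). Control OIL replicates 3 and 4, with the highest distal marker scores, held the highest and the lowest Hoxd13 of their group. The log2 ratio of Hoxb13 to Hoxd13 per kilobase was 3.09 ± 0.42 (SD, n = 4) in EHF IKO, against 2.96 ± 0.39 in Control TMX and 2.46 ± 0.27 in Control OIL, with an exact permutation p of 0.0571 for each tamoxifen-treated group against Control OIL (adjusted p = 0.343).

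Hox genes sit in 4 clusters, and the number of a gene gives its place along the cluster, which follows its place along the body axis. Of the other 37 Hox genes, 22 could be tested. The Hoxc cluster had 96 counts in all 12 libraries together and no gene that could be tested, while 9 of 11 Hoxa genes, 8 of 10 Hoxb genes and 7 of 9 Hoxd genes could be. Hoxb13 was the highest Hox gene per kilobase, ahead of Hoxb6 (25.2 ± 5.27 CPM per kilobase), Hoxb9 (18.7 ± 3.16), Hoxb5 (10.5 ± 2.61) and Hoxa13 (9.51 ± 2.26), and Hoxd13 ranked 9. Against the mean of both controls 8 of the 22 were higher and 14 lower, with a median log2 fold change of -0.06, beside 0.01 over all genes. Hoxb9 fell and no other did. With Control OIL or Control TMX alone as the reference, edgeR called none of the 22, Hoxb9 included. Hoxb9 was 46.1, 54.1, 48.8 and 50.7 CPM in Control OIL, 61.7, 61.2, 48.9 and 47.3 CPM in Control TMX and 41.6, 39.9, 41.0 and 35.3 CPM in EHF IKO. All EHF IKO libraries lay below all controls, as 1.23% of all genes did, and the log2 fold change was -0.41 ± 0.10 (edgeR adjusted p = 0.0451, with 0.00899 to 0.4 over the alternatives). Among 10 other settings the call held in 6. It also held without Control OIL replicate 1, Control TMX replicate 3 or Control TMX replicate 4, and was lost when any other library was left out, at adjusted p of 0.0672 to 0.122, with 0.122 for EHF IKO replicate 2. Hoxa13, the Hoxa counterpart of the members, had a log2 fold change of 0.06 ± 0.18.

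**Figure D3:**
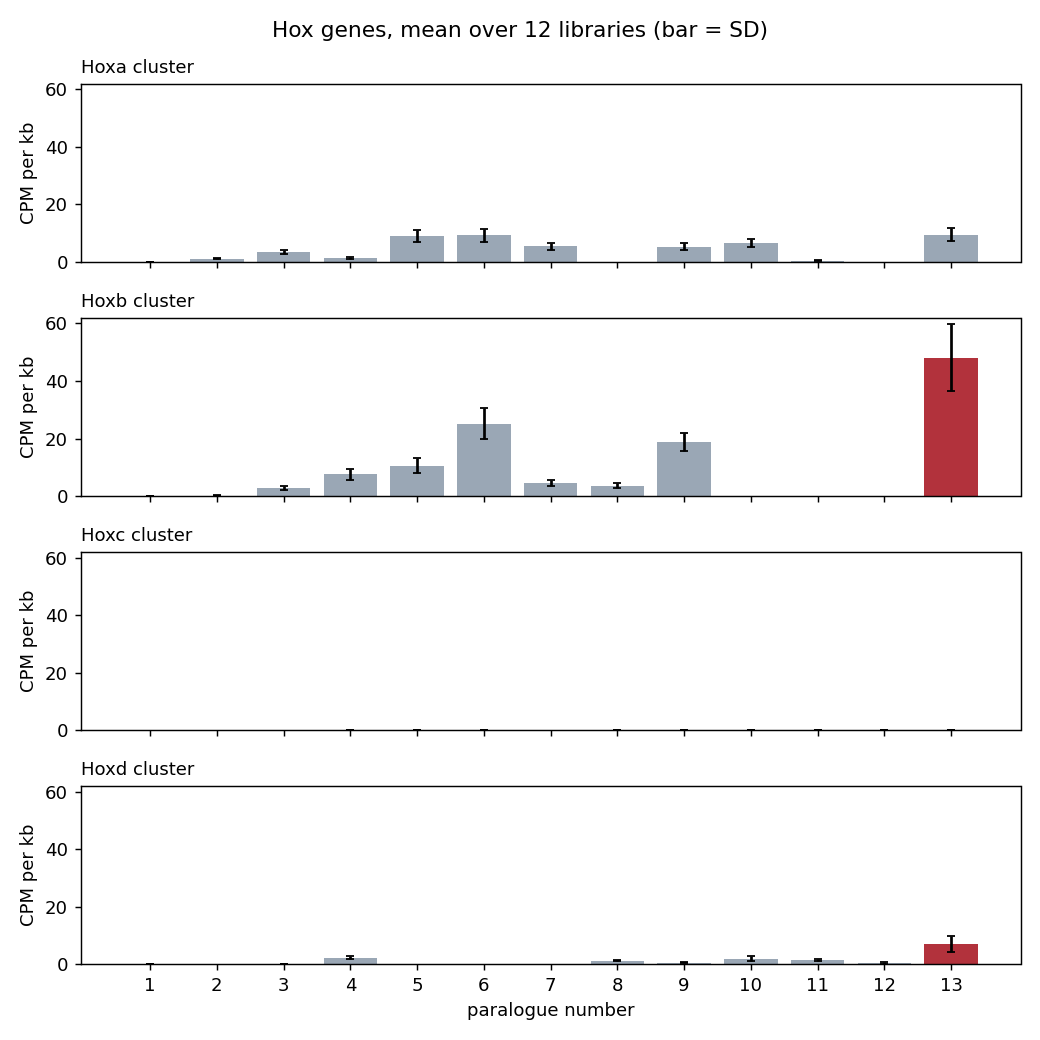
Mean level of each Hox gene over the 12 libraries in CPM per kilobase of exon (vertical axes, from 0), by cluster and paralogue number, with SD bars; the members Hoxb13 and Hoxd13 are in red. Hoxb13, at 48.02, is the highest, Hoxb6 and Hoxb9 follow, and the Hoxc genes are at or near 0.

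Scnn1b, a subunit gene of the epithelial sodium channel and 1 of the distal colon markers, fell in EHF IKO. It was 7.96, 10.96, 7.39 and 16.4 CPM in Control OIL, 8.70, 15.3, 8.90 and 9.16 CPM in Control TMX and 4.54, 5.11, 4.12 and 2.69 CPM in EHF IKO. All EHF IKO libraries lay below all 8 controls, as 1.23% of all genes did, and the log2 fold change against their mean was -1.37 ± 0.26 (edgeR adjusted p = 0.0141, and 0.030 without EHF IKO replicate 2, with 9.7e-10 to 0.272 over the alternatives). The call was lost without EHF IKO replicate 3, at an adjusted p of 0.0575. It was -1.38 ± 0.29 against Control OIL and -1.35 ± 0.29 against Control TMX (edgeR adjusted p = 0.0244 and 0.0391), and the latter call held in 4 of 12 fits that left out 1 library. Of the other distal markers, Scnn1g, another subunit gene, had a log2 fold change of -1.56 ± 0.74, Atp12a, a proton pump gene, of 0.24 ± 0.28 and Ly6g of -0.05 ± 0.28, and none was called by edgeR, nor was any of 4 proximal markers.

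Among 15 other Kruppel-like factor genes, 11 could be tested, and Klf6 rose while no other passed the test against the mean of both controls. With Control OIL or Control TMX alone as the reference, edgeR called none of the 11, Klf6 included. Klf6, a zinc finger factor that responds to injury in several tissues, was 164 to 264 CPM in Control OIL, 194.5 to 269 CPM in Control TMX and 273.5 to 416.5 CPM in EHF IKO. All EHF IKO libraries lay above all controls, as 1.17% of all genes did, and the log2 fold change was 0.58 ± 0.14 (edgeR adjusted p = 0.0495, with 5.95e-05 to 0.265 over the alternatives). Among 10 other settings the call held in 3. It also held without Control TMX replicate 4 or EHF IKO replicate 4 and was lost when any other library was left out, at 0.0535 to 0.214, with 0.214 for EHF IKO replicate 2. The 8 immediate early genes, which respond to cell isolation, summed to 488 to 675 CPM in Control OIL, 627 to 768 CPM in Control TMX and 720.1 to 869 CPM in EHF IKO, and Fos, which encodes a subunit of AP-1, rose by 0.47 ± 0.11 (adjusted p = 0.0377 by edgeR, and 0.129 without EHF IKO replicate 2, with 0.00373 to 0.14 over the alternatives). Jun, which encodes its partner, rose against Control OIL by 0.47 ± 0.10 (edgeR adjusted p = 0.0291, and 0.0658 without EHF IKO replicate 2). With Control TMX as the reference, 4 of the 8 immediate early genes were higher and 4 lower in EHF IKO, and edgeR called none. All 8 were higher in Control TMX than in Control OIL, and none was called there. The Fos call against both controls held in 3 of 12 fits that left out 1 library, and that of Jun against Control OIL in 6 of 12. The part of these genes in the Klf6 result was not tested. The median of the 11 Kruppel-like genes was 0.02.

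Of 25 other transcription factor genes of gut epithelium, 24 were tested and Gata4, a factor of the small bowel, was too low to be. None passed in edgeR in any comparison. At an unadjusted p under 0.05 there were 3 of 24 against the mean of both controls, where 11.6% of all genes passed, and the median log2 fold change was -0.01. Foxa1, a forkhead factor that opens chromatin, was 45.1, 46.8, 47.0 and 51.0 CPM in Control OIL, 51.4, 54.5, 46.6 and 47.2 CPM in Control TMX and 36.6, 37.3, 40.7 and 43.5 CPM in EHF IKO. All 4 EHF IKO libraries lay below all 8 controls, as 1.23% of all genes did. The log2 fold change of Foxa1 was -0.30 ± 0.08 (edgeR adjusted p = 0.0901, and 0.286 without EHF IKO replicate 2, with 0.0352 by DESeq2 as the lowest of a range up to 0.589). Prdm1, a repressor active in the fetal gut, was 8.27, 10.1, 8.51 and 2.02 CPM in EHF IKO and 1.61 to 4.61 CPM in the controls, so that replicates 1 to 3 lay above every control and replicate 4 among them. Its log2 fold change was 1.11 ± 0.32 (edgeR adjusted p = 0.107, and 0.385 without EHF IKO replicate 2, with 1.2e-04 to 0.574 over the alternatives).

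The lists of genes known as targets of these factors were written from general knowledge. Of 16 targets of CDX factors, 11 were higher and 5 lower against the mean of both controls and none was called by edgeR, with a median log2 fold change of 0.19; 6 of 16 had an unadjusted p under 0.05, beside 11.6% of all genes and an overall median of 0.01. Cdh17, Krt20 and Vil1 in this list are also among the epithelial markers, whose sums were higher in EHF IKO, and the part of that in these values was not tested. Cdh17, an intestinal cadherin, was 425 to 481 CPM in Control OIL, 407 to 539.5 CPM in Control TMX and 544 to 642 CPM in EHF IKO. Its EHF IKO libraries lay above all controls, as 1.17% of all genes did (log2 fold change 0.33 ± 0.09, edgeR adjusted p = 0.101, and 0.362 without EHF IKO replicate 2). Muc2, the goblet cell mucin, had a log2 fold change of -0.54 ± 0.16 (adjusted p = 0.115 by edgeR) and Gucy2c, the guanylin receptor, of -0.25 ± 0.10. Krt20, a keratin of surface cells, rose against Control OIL alone among the comparisons, by 0.71 ± 0.17 (edgeR adjusted p = 0.0438, with 1.26e-05 to 0.551 over the alternatives). Its call held in 5 of 11 other settings and without EHF IKO replicate 4, and was lost when any other library was left out, at 0.0541 to 0.161. The median of the 16 was 0.27 against Control OIL, 0.05 against Control TMX and 0.31 for Control TMX against Control OIL.

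Of 22 targets of HNF4 factors, 18 were tested, since Apoa1, Apoa4, Apoc3 and Fabp1 were too low, and none was called by edgeR in any comparison. Against the mean of both controls 10 were higher and 8 lower, 4 of 18 had an unadjusted p under 0.05 (11.6% of all genes did), and the median log2 fold change was 0.03. The median was 0.18 against Control OIL, where 15 were higher, -0.16 against Control TMX, where 13 were lower, and 0.36 for Control TMX against Control OIL. Ttr, which carries thyroid hormone and retinol, had a log2 fold change of 0.92 ± 0.24 (edgeR adjusted p = 0.0806), with 28.3 CPM in EHF IKO replicate 4 and 6.81 to 14.4 CPM in the other 11 libraries. Without EHF IKO replicate 2 its adjusted p was 0.0254 by edgeR, with 8.9e-06 to 0.519 over the alternatives. Acsl5, which activates fatty acids, had a log2 fold change of 0.34 ± 0.10 and Pck1, an enzyme of gluconeogenesis, of -0.45 ± 0.16.

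Of 6 genes linked to KLF4 or KLF5, all 6 were higher against the mean of both controls, with a median log2 fold change of 0.28, beside 0.01 over all genes. In edgeR 4 of 6 had an unadjusted p under 0.05, where 11.6% of all genes did. Alpi alone rose, where 1.72% of all genes were called. Alpi, the intestinal alkaline phosphatase of the brush border, was 12.9, 19.0, 10.32 and 20.0 CPM in Control OIL, 26.9, 34.5, 36.2 and 35.99 CPM in Control TMX and 79.3, 111.5, 77.96 and 55.9 CPM in EHF IKO. The 3 groups did not overlap, and 1.17% of all genes lay higher in EHF IKO than in all 8 control libraries. The log2 fold change of Alpi in EHF IKO was 1.28 ± 0.21 against Control TMX (edgeR adjusted p = 0.0113), and this call held when any 1 library was left out. Klf4 itself did not share this order, since its EHF IKO and Control TMX levels overlapped.

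**Figure D4:**
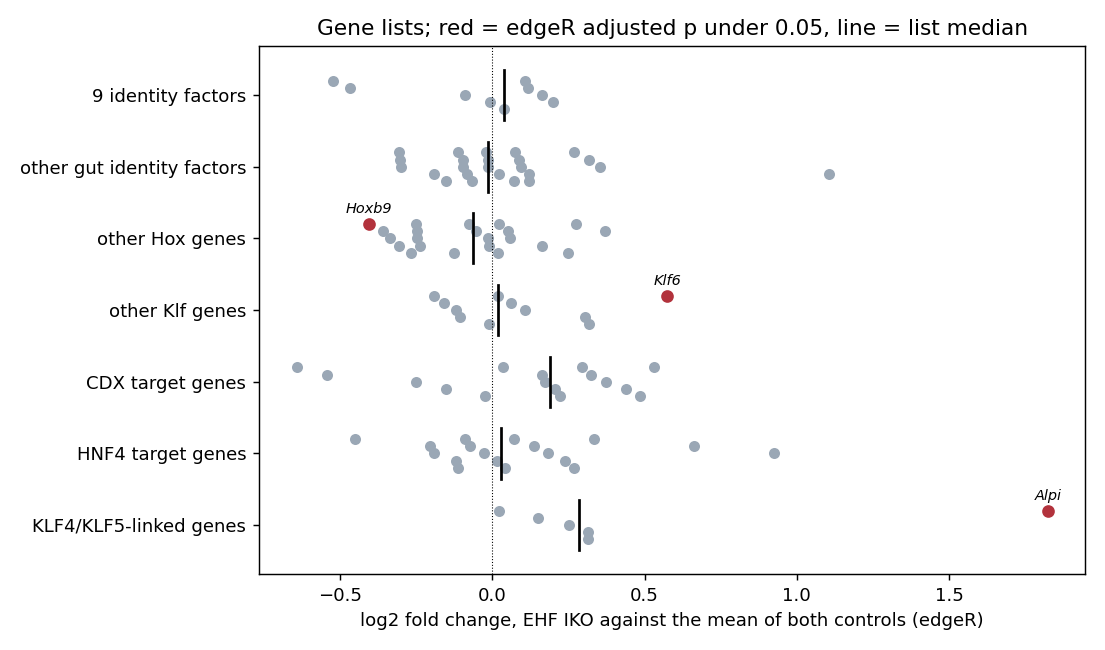
Log2 fold change of EHF IKO against the mean of both controls (horizontal axis) for each tested gene of the 9 factors and 6 related lists, with list medians as lines and genes at an edgeR adjusted p under 0.05 in red. The medians run from -0.06 for the other Hox genes to 0.28 for the genes linked to KLF4 or KLF5, and the red points are Hoxb9, Klf6 and Alpi.

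The genes whose levels followed each factor most closely were ranked by Pearson's r of log2 CPM over the 12 libraries among 11776 genes, as a description of libraries that share group, sex and depth. For Cdx1 they were Kcnn4, a potassium channel gene, Cxxc1 and Pkdcc, with r of 0.955, 0.954 and 0.95. For Cdx2 they were Ehhadh, a peroxisomal fatty acid enzyme gene (0.962), the water channel gene Aqp1 (0.948) and Tmem41a (0.931). Hnf4a ran closest to Phlpp2 (0.945) and to Rbp2, which carries retinol in enterocytes (0.942), and Hnf4g to Slc35d2 (0.878) and Cdh1, the epithelial cadherin (0.875). Klf4 ran closest to Slc9a3r1, a brush border scaffold gene (0.937), Klf5 to Whamm (0.933) and Gata6 to Zdhhc4 (0.951). Hoxb13 ran closest to Aldh1l1, a folate enzyme gene (0.96), and Hoxd13 to Ppat, a purine synthesis gene (0.887). None of these genes passed the test against the mean of both controls in edgeR.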

How the data were processed

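Total RNA of colonic epithelium from 12 mice was sequenced, 1 library a mouse. Each deposited file gives whole-number read counts by gene symbol, which per the file headers the authors made with featureCounts 1.6.1 over the exons of Ensembl GRCm38 release 98, without regard to strand and leaving out reads that mapped to several places or genes. STAR is named as the aligner in the submitters' processing notes; no version was found in the sources used here.

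Groups came from the labels. edgeR 4.0.16 (R 4.3.3) fitted all 12 libraries at once, with TMM factors, filterByExpr by group and robust quasi-likelihood, and 15743 genes were adjusted by Benjamini-Hochberg, with an adjusted p under 0.05 called. The common biological coefficient of variation was 18.3%. Ratios were compared by two-sided exact permutation. The fit was tested on simulated data. Replicate numbers were taken not to pair mice, since the labels do not say what they mark. Correlated deviations were over 0.1 in 5 of 12 same-number pairs. Pairs of unlike number also passed 0.1, as Control OIL 1 and Control TMX 4 did at 0.372, and the numbers follow sex. These correlations therefore do not settle whether the numbers pair mice.

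The factors, lists and tests were chosen with earlier results of these data known. Named genes were the 9 factors, up to 4 genes a list with the smallest unadjusted p against the mean of both controls or called in any comparison, and 3 genes most like each factor; Hoxa13, Hoxb6, Gata4 and the untested apolipoprotein genes were named outside that rule, with their values seen. The colon region and fibroblast scores average markers of each kind in a library, and the distal marker Prac1 was not analysed here. Alternatives were DESeq2 1.42.0, its size factors in edgeR, limma-voom 3.58.1, other filters, no robust setting, the compared groups alone, a replicate block, sex, region or fibroblast covariates and leaving out each library.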

Additional observations from a re-analysis of the deposited data

Results flagged for a closer look

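In 4 of 27 sets of 4 libraries, counting each factor in each group, the highest or lowest library lay farther from the others than Dixon's test allows. For a single set chance gives about 1 in 20. The share over all genes was not computed and the 27 sets share the same 12 libraries, so no excess over chance can be read from the 4. Control OIL replicate 3 was the highest of its group for Cdx1, at 221 CPM against 168 for the next. The same library was the highest for Hoxb13, at 154 CPM against 99.5 for the next, and had the highest Hoxd13 of all libraries. Control OIL replicate 1 was the lowest of its group for Hnf4a, at 532 CPM against 618 for the next. EHF IKO replicate 4 was the highest of its group for Klf5, at 451 CPM against 368 for the next.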

How the results depend on the processing

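No factor was called in 12 fits that each left out 1 library, nor with DESeq2 size factors in edgeR, limma-voom, a minimum mean log2 CPM of 1, no robust setting, a replicate block, sex, region or fibroblast covariates or the compared groups alone. DESeq2 called 1 factor against Control OIL (Klf4). With no filter on low counts, 2 were called against the mean of both controls (Cdx1, Hoxd13), 1 against Control OIL (Hoxd13), 1 against Control TMX (Cdx1) and 1 between the controls (Hoxd13). The cause was not tested. The replicate block also ended the calls of Hoxb9, Klf6 and Fos against both controls (adjusted p = 0.0869, 0.1245 and 0.0593), of Krt20 and Jun against Control OIL (0.0697 and 0.078) and of Scnn1b against Control TMX (0.0706). Depth limits Hoxd13 most, at 90 to 269 counts a library.

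In the order mean of both controls, Control OIL, Control TMX and Control TMX against Control OIL, 270, 265, 126 and 13 genes were called, or 1.72%, 1.68%, 0.80% and 0.0826% of those tested. They were 831, 724, 500 and 441 (2.02%, 1.76%, 1.21% and 1.07%) with no filter, 471, 534, 305 and 196 (2.99%, 3.40%, 1.94% and 1.48%) by DESeq2, and 60, 22, 69 and 2 (0.381%, 0.140%, 0.438% and 0.0127%) with the fibroblast score. With the replicate block 148, 173 and 72 were called against the controls (0.940%, 1.099% and 0.457%) and 18 between them. Against Control TMX 196 (1.25%) were called with the region score, and against Control OIL 0.740% in the compared groups alone. Between the controls there were 5 (0.0357%) with the minimum mean log2 CPM, 8 (0.0508%) by limma-voom, 38 (0.241%) with sex and 20 (0.127%) with the region score. Leaving out 1 library gave 0.670% (108 genes, without EHF IKO replicate 3) to 3.23% (522, without EHF IKO replicate 4), 0.650% to 4.41% (both without an EHF IKO library, replicates 1 and 4), 0.312% to 1.00% and 0.0187% to 0.415%. These counts moved by over 1.5 times without any 1 EHF IKO library against both controls or Control OIL. The same held without Control OIL replicates 1, 3 or 4 against Control OIL, without EHF IKO or Control TMX replicates 1, 2 or 3 against Control TMX, and between the controls without any library except Control OIL replicate 4. Replicate numbers gave same-number correlations of -0.406 to 0.405.

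Several log2 fold changes near 0 turned sign. Against Control TMX these were, with no filter, Hnf4a (-0.0053), Klf4 (-0.0075), Cdx2 (-0.0341) and Klf5 (-0.0348); Cdx2 with the replicate block (-0.0041), sex (-0.0026), the region score (-0.1078), the fibroblast score (-0.0194) or the compared groups alone (-0.005); Klf4 with the fibroblast score (-0.0025) and Klf5 in the compared groups alone (-0.0096). With the region score Hoxb13 was 0.0129 against Control OIL and 0.071 against both controls, where Cdx2 was -0.0407. Cdx1 between the controls was -0.0053 with the fibroblast score. When 1 library was left out, Klf5 ran from -0.0514 to 0.0763 and Hoxb13 from -0.254 to 0.1395 against both controls. Against Control OIL the ranges were -0.0167 to 0.1323 for Klf5, -0.1021 to 0.055 for Gata6 and -0.337 to 0.1009 for Hoxb13. Against Control TMX they were -0.0458 to 0.0628 for Cdx2, -0.009 to 0.0648 for Klf4, -0.0861 to 0.0804 for Klf5, -0.1711 to 0.2218 for Hoxb13 and -0.3015 to 0.0485 for Hoxd13. Between the controls they were -0.0081 to 0.1354 for Klf5 and -0.2309 to 0.0256 for Hoxb13. For the log2 ratios they were -0.3252 to 0.0332 for Cdx1 to Cdx2 and -0.0688 to 0.0852 for Hnf4a to Hnf4g between the controls, and -0.0303 to 0.1263 for Klf4 to Klf5 and -0.0074 to 0.3298 for Hoxb13 to Hoxd13 in EHF IKO against Control TMX.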
